A study of Mus musculus with 12 samples.

Results

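The 10 genes described here set the tone of blood vessels and were followed in primary brain endothelial cells (BECs) of mice with and without cortistatin: the nitric oxide synthases Nos2 and Nos3, the endothelin genes Edn1, Ece1, Ednra and Ednrb, the natriuretic peptide receptors Npr1 and Npr3, and Ace and Agt of the angiotensin system. They were taken by symbol, as a list written for this question, and all 10 were found among the 32419 genes listed in the RNA-seq tables. RNA was measured in BECs of Cort+/+ and Cort-/- mice, all labelled C57BL/6, of which the Cort-/- mice lack the neuropeptide cortistatin in every tissue from birth. The cells were enriched from brain microvessels and kept either in normoxia and normoglycemia (NX/NG) for 24 h, or under low oxygen without glucose and serum for 4 h and then for 20 h with both oxygen and glucose restored (oxygen-glucose deprivation and reoxygenation, OGD-R). The analysis used 10 libraries, namely 3 Cort+/+ and 2 Cort-/- under NX/NG and 3 Cort+/+ and 2 Cort-/- under OGD-R, each from cells pooled from 3 mice, so that the spread is between pools and not between animals. The labels also name a stroke model in the mouse, while the methods describe deprivation of cultured cells only. A further Cort-/- sample of each environment (replicate 3 under NX/NG, replicate 2 under OGD-R) was not analysed here.

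Nitric oxide is made from arginine by the endothelial synthase Nos3 in resting endothelium and by the inducible synthase Nos2 after inflammatory stimuli, and it relaxes the vessel wall through cyclic GMP. Endothelin-1, encoded by Edn1 and cut to its active form by the enzyme Ece1, is a potent constrictor that acts on the receptor Ednra of mural cells, whereas the receptor Ednrb of endothelium also clears endothelin and elicits nitric oxide. Natriuretic peptides raise cyclic GMP through the receptor Npr1, a guanylyl cyclase, and are removed by the receptor Npr3. Angiotensinogen, the product of Agt, is the precursor from which renin and then the converting enzyme Ace, which also degrades bradykinin, make the constrictor angiotensin II.

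The sequences of Edn1 come first, because this ligand had the highest mean level of the 10 in each group. Its coding sequence (GENCODE vM21 transcript Edn1-201, 202 codons) holds the 21 codons of the mature peptide at codons 53 to 73, and a search for the same spacing of 4 cysteine codons found a second stretch at codons 110 to 130 of the same precursor. Capitals mark the cysteine codons, and the spacing is the only feature that the search used.
Edn1 codons 53 to 73: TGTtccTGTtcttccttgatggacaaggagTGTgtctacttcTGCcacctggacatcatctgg
Edn1 codons 110 to 130: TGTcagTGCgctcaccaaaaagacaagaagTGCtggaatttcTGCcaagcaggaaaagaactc

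The 250 bases before the RefSeq start (GRCm38.p6) follow for Edn1, as the endothelin ligand, and for Npr3 and Agt, the members whose Cort-/- libraries all lay below the Cort+/+ libraries in both environments. A RefSeq promoter was matched for 8 of the 10 members, other than Nos2 and Nos3. Capitals mark any match on either strand to 6 motifs, namely ACGTG and GCGTG (cores bound by hypoxia-inducible and aryl hydrocarbon receptor factors), TGANTCA (the AP-1 site), GATAA (GATA factors), CACCC (Klf factors) and TATAAA (the TATA box).
Edn1, chr13:42301226-42301475, plus strand: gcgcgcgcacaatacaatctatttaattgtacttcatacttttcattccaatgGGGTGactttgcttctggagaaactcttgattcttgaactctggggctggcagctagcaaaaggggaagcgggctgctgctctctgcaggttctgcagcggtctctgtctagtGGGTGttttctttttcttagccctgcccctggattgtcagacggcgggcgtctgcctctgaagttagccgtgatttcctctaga
Npr3, chr15:11907372-11907621, minus strand: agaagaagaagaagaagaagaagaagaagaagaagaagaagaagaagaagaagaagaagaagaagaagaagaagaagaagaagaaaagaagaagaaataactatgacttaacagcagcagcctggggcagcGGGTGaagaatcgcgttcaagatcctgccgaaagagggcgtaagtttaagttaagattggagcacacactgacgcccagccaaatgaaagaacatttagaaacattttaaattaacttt
Agt, chr8:124569707-124569956, minus strand: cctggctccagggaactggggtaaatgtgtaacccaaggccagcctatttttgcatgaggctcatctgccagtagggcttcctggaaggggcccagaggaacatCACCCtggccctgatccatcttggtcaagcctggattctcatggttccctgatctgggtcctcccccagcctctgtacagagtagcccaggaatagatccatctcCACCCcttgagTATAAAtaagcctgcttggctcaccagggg

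Counted from the start of transcription, the motif CACCC began at -197 and -84 in Edn1, at -119 in Npr3 and at -146 and -41 in Agt, and 52.0% of the 32851 promoters of this length held it. TATAAA was found at -30 in Agt and at -31 upstream of one of the Ace starts, against 12.4% of all promoters. ACGTG (16.6% of promoters), GCGTG (28.2%), TGANTCA (6.75%) and GATAA (22.6%) were not in the 3 windows printed. A match is a stretch of letters and not a bound site, and the window leaves out any element farther away.

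Each library held between 12386048 and 12390428 reads on genes, as recovered from the deposited RPKM values (reads per gene length and library size, scaled by the authors). These totals are nearly equal and lie below the sequencing depth stated for the libraries, and how they came about is not given in the sources used here, so read counts and the depth they set are those of the deposited tables. Cort, the deleted gene, gave 2, 1 and 1 reads in Cort+/+ cells under NX/NG and 0, 0 and 1 under OGD-R, against 0 reads in all 4 Cort-/- libraries, where a count of 0 allows up to 3 reads, so its level was too low to check the genotype. Endothelial markers were abundant, with a summed level over 10 genes of 1100 to 1590 RPKM led by Cdh5 at 443 to 740 RPKM. Acta2 (630 to 1080 RPKM) and Tagln (358 to 684 RPKM) were also abundant, as part of a smooth muscle sum over 6 genes of 1000 to 1820 RPKM in which Actg2 measured 6.52 to 57.8, Cnn1 6.08 to 16.4 and Myh11 0.506 to 2.11 RPKM. The pericyte sum over 7 genes was 7.59 to 22.9 RPKM, led by Pdgfrb (5.17 to 15.4 RPKM), with Kcnj8, Abcc9 and Higd1b at most at 0.102 RPKM. The macrophage and microglial sum was 2.60 to 4.24 RPKM, nearly all from Csf1r (1.14 to 1.97 RPKM) and Cd68 (1.10 to 2.22 RPKM), with Ptprc at most at 0.032 RPKM. A pair of libraries stood apart in ribosomal RNA, as Rn18s-rs5 took only 0.0775% of reads in replicate 1 of the Cort+/+ OGD-R cells and 0.0951% in replicate 3 of the Cort-/- OGD-R cells, against 7.64% to 15.8% in the other 8, and genotype differences under OGD-R are given with and without both. Heat maps in the study that compare environments do not draw that Cort+/+ library, which is labelled and was used here. Another pair stood apart in epithelial markers, whose sum over 6 genes was 57.3 RPKM in replicate 2 of the Cort+/+ NX/NG cells and 41.1 RPKM in replicate 1 of the Cort-/- OGD-R cells, against 2.81 to 15.7 RPKM in the other 8. Without both libraries low in ribosomal RNA, that replicate 1 is the only Cort-/- OGD-R library left. Genotype differences under OGD-R given without both therefore rest on a Cort-/- library high in epithelial markers.

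By mean RPKM, a measure per gene length, the order in Cort+/+ cells under NX/NG was Edn1 (153 RPKM), Ece1 (148 RPKM), Nos3 (31.2 RPKM), Ace (25.3 RPKM), Npr3 (8.07 RPKM), Npr1 (3.03 RPKM), Nos2 (2.56 RPKM), Agt (1.61 RPKM), Ednra (0.459 RPKM) and Ednrb (0.456 RPKM). Edn1 and Ece1 lay above 99.2% of the listed genes and Nos3 above 95.3%, while Ednra and Ednrb lay above 46.5%. Neighbours whose ranges overlapped in this group, and whose order was therefore not settled, were Edn1 with Ece1, Nos3 with Ace, Npr1 with Nos2, Nos2 with Agt, and Ednra with Ednrb.

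**Figure D1:**
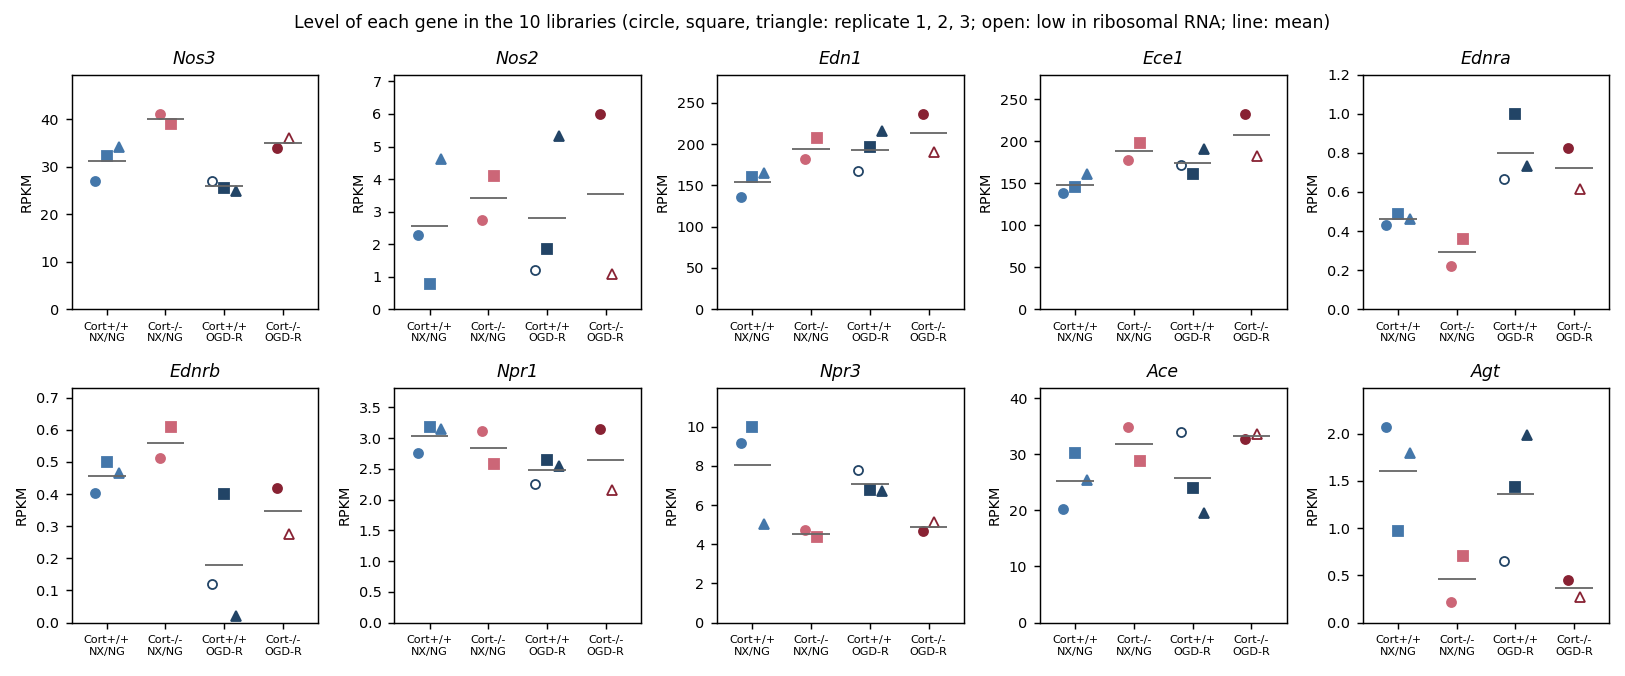
Level of each of the 10 genes in the 10 libraries, 1 panel a gene, with RPKM on the y axis from 0 and the 4 groups on the x axis. Points are libraries (circle, square and triangle for replicates 1, 2 and 3, open for the pair low in ribosomal RNA) and lines are group means. Nos3 sat higher in Cort-/- than in Cort+/+ libraries in both environments, while Npr3 and Agt sat lower.

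No member passed a false discovery rate (FDR) of 0.05 in any of the 5 comparisons, by limma across all genes with Benjamini-Hochberg adjustment, so every difference below is a measured value and not a call. Of all genes tested, 0% passed for Cort-/- against Cort+/+ under NX/NG (0 of 29965) and under OGD-R (0 of 29775), 0.0332% for OGD-R against NX/NG in Cort+/+ cells, 0% in Cort-/- cells and 0.011% for the interaction. At an unadjusted p under 0.05, the genotype comparison under NX/NG held 4 members of 10, beside 8.39% of all genes: Nos3, Edn1 and Ece1 were higher in Cort-/- cells (3.56% of genes were higher) and Agt was lower (4.82%). Under OGD-R it held 3 of 10, beside 3.42%, with Nos3 higher (1.72% of genes) and Npr3 and Agt lower (1.71%). OGD-R against NX/NG in Cort+/+ cells held 4 of 10, beside 5.48%, with Ednra higher (3.01% of genes) and Nos3, Ednrb and Npr1 lower (2.48%). In Cort-/- cells it held 1 of 10, beside 4.08%, with 0 higher (2.21% of genes) and Nos3 lower (1.87%). The interaction held 0 of 10, beside 2.85%. The median log2 fold change of the 10 members in Cort-/- against Cort+/+ cells was 0.30 under NX/NG and 0.15 under OGD-R, and the median of all genes was -0.014 and -0.0089.

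**Figure D2:**
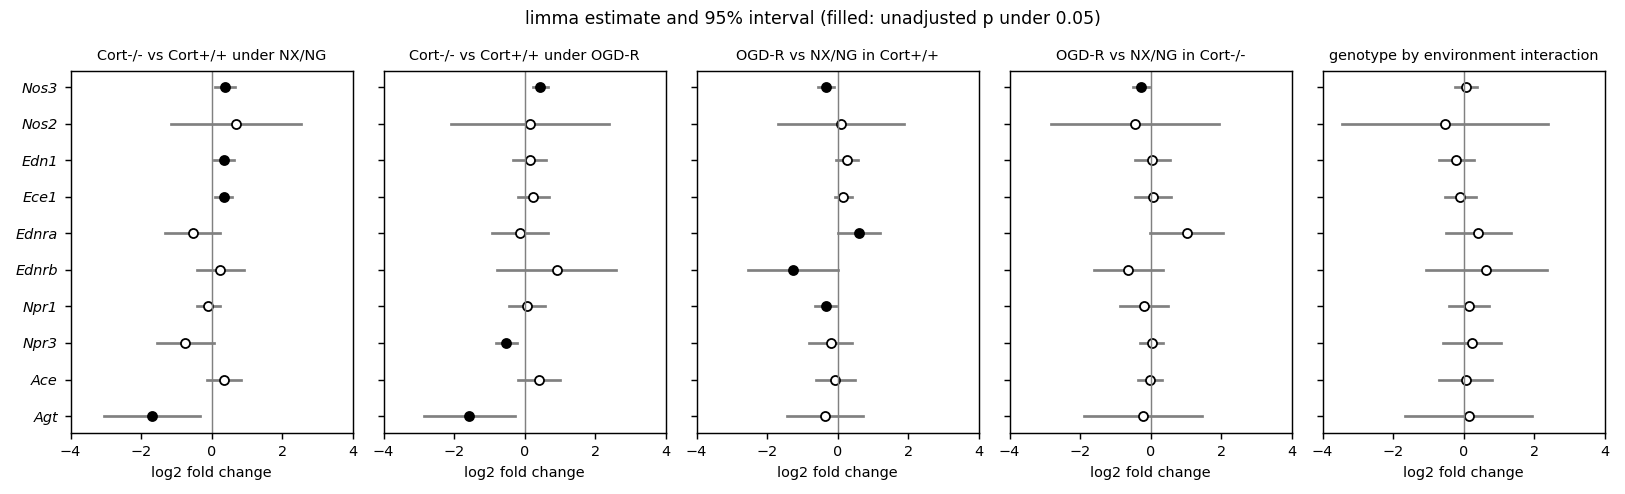
Estimated log2 fold change of each member (x axis, on the log2(RPKM + 0.1) scale) with its 95% interval, in the 4 pairwise comparisons and the interaction. Filled points have an unadjusted limma p under 0.05, of which there were 4, 3, 4, 1 and 0, and no point passed an FDR of 0.05.

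Nos3, the endothelial synthase (chr5:24364810-24384474, plus strand; positions of members are those of GENCODE vM21 on GRCm38), had replicates close to each other in each group. Under NX/NG it measured 27.1, 32.3 and 34.1 RPKM in Cort+/+ replicates 1, 2 and 3, and 41.2 and 39.0 RPKM in Cort-/- replicates 1 and 2. After OGD-R the values were 27.1, 25.5 and 25.0 RPKM in Cort+/+ replicates 1, 2 and 3, and 34.0 and 36.0 RPKM in Cort-/- replicates 1 and 3. Both Cort-/- libraries thus lay above all 3 Cort+/+ libraries in each environment, and the OGD-R libraries of each genotype lay at or below the lowest NX/NG library. The genotype difference was 1.29-fold under NX/NG (95% interval 1.06 to 1.57, adjusted p = 0.476) and 1.35-fold under OGD-R (1.17 to 1.57, adjusted p = 0.510). On libraries scaled together, the OGD-R level was 0.792 times the NX/NG level in Cort+/+ cells (0.675 to 0.929, adjusted p = 0.881) and 0.827 times in Cort-/- cells (0.703 to 0.973, adjusted p = 0.922). The genotype difference did not change detectably with the environment, the interaction being 1.04-fold (0.838 to 1.30, adjusted p = 1.00). Without both libraries low in ribosomal RNA, the log2 difference between genotypes under OGD-R was 0.43, and within that pair alone it was 0.41. The first value rests on 1 Cort-/- library, the one high in epithelial markers, against 2 Cort+/+ libraries. The second rests on 1 library of each genotype. Here and for the other members, such values hold no spread between Cort-/- pools and are given as sizes only. Nos3 was measured as RNA, whereas the study reports lower nitrite, a nitric oxide metabolite, from Cort-/- BECs in both environments.

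Nos2, the inducible synthase (chr11:78920787-78960254, plus strand), varied more between replicates than between groups. It measured 2.28, 0.789 and 4.61 RPKM in the Cort+/+ NX/NG libraries and 2.75 and 4.09 RPKM in the Cort-/- NX/NG libraries. The OGD-R libraries measured 1.21, 1.85 and 5.33 RPKM in Cort+/+ replicates 1, 2 and 3, and 6.01 and 1.07 RPKM in Cort-/- replicates 1 and 3. The groups overlapped in each comparison, and the lowest and the highest library differed from 46 to 313 reads. Cort-/- cells measured 1.61-fold the Cort+/+ level under NX/NG with an interval of 0.446 to 5.80 (adjusted p = 0.784), and 1.11-fold under OGD-R with 0.236 to 5.25 (adjusted p = 0.983), and both intervals reach far on either side of no difference. Under OGD-R the sign turned without Cort-/- replicate 1, high in epithelial markers (log2 -1.04), or Cort+/+ replicate 1 (log2 -0.28), and the log2 difference was 0.91 without both libraries low in ribosomal RNA and -0.16 within that pair. Under NX/NG it was 0.048 without Cort+/+ replicate 2, the other library high in epithelial markers, where it was 0.69 with it. OGD-R against NX/NG gave 1.07-fold in Cort+/+ cells (0.310 to 3.67, adjusted p = 0.999) and 0.734-fold in Cort-/- cells (0.141 to 3.81, adjusted p = 0.965). The study, from its own fit, reports Nos2 as downregulated by OGD-R in Cort-/- cells. The table length of Nos2 was 4439 bases where the GENCODE vM21 exons span 4412, the only member for which the lengths differed.

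Edn1, the ligand (chr13:42301476-42307990, plus strand; the first printed sequences), and Ece1, its converting enzyme (chr4:137862237-137965229, plus strand), differed alike between genotypes. Edn1 measured 136, 160 and 165 RPKM in Cort+/+ and 182 and 207 RPKM in Cort-/- libraries under NX/NG, with no overlap. With OGD-R it measured 167, 197 and 216 RPKM in Cort+/+ replicates 1, 2 and 3 and 237 and 190 RPKM in Cort-/- replicates 1 and 3, and there the groups overlapped. Ece1 measured 138, 146 and 161 RPKM in Cort+/+ and 178 and 198 RPKM in Cort-/- libraries under NX/NG, again with no overlap. Under OGD-R it measured 172, 161 and 191 RPKM in Cort+/+ replicates 1, 2 and 3 and 233 and 183 RPKM in Cort-/- replicates 1 and 3, which overlapped. The genotype difference under NX/NG was 1.27-fold for Edn1 (1.04 to 1.56, adjusted p = 0.526) and 1.27-fold for Ece1 (1.07 to 1.5, adjusted p = 0.446). Under OGD-R it was 1.10-fold for Edn1 (0.799 to 1.52, adjusted p = 0.978) and 1.19-fold for Ece1 (0.881 to 1.60, adjusted p = 0.978). OGD-R against NX/NG gave 1.2-fold for Edn1 in Cort+/+ cells (0.965 to 1.49, adjusted p = 0.919) and 1.03-fold in Cort-/- cells (0.730 to 1.46), and 1.12-fold and 1.04-fold for Ece1. Without Cort+/+ OGD-R replicate 1, low in ribosomal RNA, the Edn1 difference in Cort+/+ cells was log2 0.36 (adjusted p = 0.653). The log2 difference between genotypes under OGD-R was 0.20 for Edn1 and 0.41 for Ece1 without both libraries low in ribosomal RNA, and 0.18 and 0.088 within that pair. Cort-/- OGD-R replicate 1, high in epithelial markers, had the highest Nos2, Edn1 and Ece1 levels of the 10 libraries, and without it the genotype difference was log2 -0.019 for Edn1 and 0.070 for Ece1. Ece1 lies 11.2 Mb from Cort on chromosome 4, and the part of this position in its difference was not tested.

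The endothelial marker sum was also higher in Cort-/- cells under NX/NG. It was 1100 to 1390 RPKM in Cort+/+ and 1430 to 1560 RPKM in Cort-/- libraries, with 9 of 10 markers higher in Cort-/- cells and a median log2 fold change of 0.24. Divided by that sum within each library, Nos3 differed by 1.04-fold between genotypes (two-sided exact permutation p = 0.4), Edn1 by 1.03-fold (exact p = 0.8) and Ece1 by 1.02-fold (exact p = 1.0), where 2 against 3 libraries cannot give less than 0.2. Ednra (0.497-fold), Npr1 (0.755-fold), Npr3 (0.475-fold) and Agt (0.206-fold) per endothelial sum lay lower in Cort-/- cells without overlap (exact p = 0.2). The fibroblast marker sum was 83.6 to 121 RPKM in Cort-/- and 193 to 279 RPKM in Cort+/+ libraries, and the pericyte sum 7.59 to 10.2 against 17.9 to 21.4 RPKM. The macrophage and microglial sum was 3.84 to 4.02 RPKM in Cort-/- and 2.60 to 3.15 RPKM in Cort+/+ libraries. The part of these sums in the members' differences was not tested. Under OGD-R the endothelial sums overlapped (1200 to 1310 RPKM in Cort+/+, 1300 to 1590 RPKM in Cort-/-), as did the fibroblast and pericyte sums, and Nos3 divided by the endothelial sum differed by 1.18-fold (exact p = 0.4). In Cort+/+ cells Nos3 per endothelial sum was 0.802 times as high under OGD-R as under NX/NG, and Edn1 1.21 times as high, with no overlap in either case (exact p = 0.1, the smallest that 3 against 3 allow). The same exact p, without overlap, was reached by Ece1 (1.13-fold), Ednra (1.65-fold), Ednrb (0.208-fold) and Npr1 (0.79-fold). These ratios were chosen after the values were seen, and in bulk RNA a different share of endothelial cells and a different level per cell cannot be told apart.

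The endothelin receptors were counted with few reads. Ednra (chr8:77663031-77724464, minus strand) measured 0.432, 0.486 and 0.459 RPKM in Cort+/+ and 0.222 and 0.359 RPKM in Cort-/- libraries under NX/NG, from 15 to 35 reads a library. After OGD-R the values were 0.665, 1.00 and 0.733 RPKM in Cort+/+ replicates 1, 2 and 3 and 0.825 and 0.616 RPKM in Cort-/- replicates 1 and 3. All OGD-R libraries lay above all NX/NG libraries for this constrictor receptor. Ednrb (chr14:103814625-103844402, minus strand) measured 0.402, 0.499 and 0.467 RPKM in Cort+/+ and 0.512 and 0.609 RPKM in Cort-/- libraries under NX/NG. The OGD-R libraries measured 0.119, 0.401 and 0.0196 RPKM in Cort+/+ replicates 1, 2 and 3 and 0.420 and 0.275 RPKM in Cort-/- replicates 1 and 3. On the joint scale, each OGD-R library of a genotype lay below its NX/NG libraries, but the Cort+/+ OGD-R values rested on 7, 19 and 1 reads.

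For Ednra, OGD-R against NX/NG gave 1.52-fold in Cort+/+ cells (1.01 to 2.30, adjusted p = 0.881) and 2.03-fold in Cort-/- cells (0.988 to 4.15, adjusted p = 0.922). For Ednrb it gave 0.412-fold in Cort+/+ cells (0.170 to 0.996, adjusted p = 0.881) and 0.641-fold in Cort-/- cells (0.326 to 1.26, adjusted p = 0.922). The estimates for the receptors thus lay on opposite sides of no difference in both genotypes, although in Cort-/- cells both intervals include no difference. Between genotypes, Ednra was 0.688-fold under NX/NG (0.402 to 1.18, adjusted p = 0.681) and 0.915-fold under OGD-R (0.529 to 1.58, adjusted p = 0.978), and its sign under OGD-R turned without Cort+/+ replicate 2 (log2 0.027) or Cort-/- replicate 3 (log2 0.057). Ednrb was 1.19-fold under NX/NG (0.748 to 1.89, adjusted p = 0.784) and 1.87-fold under OGD-R (0.582 to 6.01, adjusted p = 0.978). Without both libraries low in ribosomal RNA, the log2 difference of OGD-R and NX/NG in Cort+/+ cells was 0.72 for Ednra (adjusted p = 0.723) and -1.23 for Ednrb (adjusted p = 0.778). That between genotypes under OGD-R was then -0.052 for Ednra and 1.09 for Ednrb, and within the pair -0.096 and 0.77.

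Of the natriuretic peptide receptors, Npr3, the clearance receptor (chr15:11839896-11907287, minus strand; promoter printed above), is given first. It measured 9.18, 9.99 and 5.02 RPKM in Cort+/+ and 4.73 and 4.36 RPKM in Cort-/- libraries under NX/NG. With OGD-R it measured 7.78, 6.76 and 6.70 RPKM in Cort+/+ replicates 1, 2 and 3 and 4.68 and 5.12 RPKM in Cort-/- replicates 1 and 3. Every Cort-/- library lay below every Cort+/+ library of its environment, although Cort+/+ NX/NG replicate 3 came within 0.3 RPKM of the higher Cort-/- library. The Cort-/- level was 0.593 times the Cort+/+ level under NX/NG (0.339 to 1.04, adjusted p = 0.635) and 0.697 times under OGD-R (0.570 to 0.853, adjusted p = 0.691). Without Cort+/+ NX/NG replicate 3 the NX/NG difference was log2 -1.06 (adjusted p = 0.170). Without both libraries low in ribosomal RNA the OGD-R difference was log2 -0.52, and within that pair it was -0.59. Divided by the endothelial sum, Npr3 was 0.475 and 0.604 times as high in Cort-/- cells under NX/NG and OGD-R, with no overlap in either environment (exact p = 0.2 in both, the smallest possible).

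Npr1, the cyclase receptor (chr3:90450591-90465866, minus strand), measured 2.76, 3.18 and 3.15 RPKM in Cort+/+ and 3.11 and 2.57 RPKM in Cort-/- libraries under NX/NG. Under OGD-R it measured 2.25, 2.65 and 2.55 RPKM in Cort+/+ replicates 1, 2 and 3 and 3.14 and 2.15 RPKM in Cort-/- replicates 1 and 3. Genotypes overlapped in both environments, at 0.936-fold under NX/NG (0.743 to 1.18) and 1.04-fold under OGD-R (0.728 to 1.5). In Cort+/+ cells the OGD-R libraries lay below all NX/NG libraries, at 0.787-fold (0.645 to 0.960, adjusted p = 0.881), and without both libraries low in ribosomal RNA the log2 difference was -0.28 (adjusted p = 0.747). The log2 difference between genotypes under OGD-R was 0.26 without both and -0.068 within that pair. Npr3 over Npr1 within a library was 0.629-fold in Cort-/- against Cort+/+ cells under NX/NG (two-sided exact permutation p = 0.4) and 0.663-fold under OGD-R (exact p = 0.2, the smallest possible).

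Agt, the angiotensin precursor (chr8:124556534-124569706, minus strand; promoter printed above), had the largest log2 difference between genotypes of the 10 members in each environment. It measured 2.07, 0.966 and 1.79 RPKM in Cort+/+ and 0.214 and 0.707 RPKM in Cort-/- libraries under NX/NG, from 24 to 48 and from 5 to 17 reads. After OGD-R the values were 0.655, 1.43 and 1.99 RPKM in Cort+/+ replicates 1, 2 and 3 and 0.451 and 0.271 RPKM in Cort-/- replicates 1 and 3, from 17 to 45 and from 7 to 10 reads. All 4 Cort-/- libraries thus lay below the Cort+/+ libraries of their environment. The Cort-/- level was 0.308 times the Cort+/+ level under NX/NG (0.119 to 0.795, adjusted p = 0.505) and 0.337 times under OGD-R (0.138 to 0.823, adjusted p = 0.978). On the log2 scale the OGD-R difference was -1.70 without both libraries low in ribosomal RNA and -1.02 within that pair. The environment made no detectable difference in either genotype, at 0.783-fold in Cort+/+ (0.372 to 1.65) and 0.861-fold in Cort-/- cells (0.271 to 2.74). Astrocytes, a known source of angiotensinogen in brain, left few transcripts, with Gfap at most at 0.108, Aldoc at 0.357 and S100b at 1.21 RPKM. Agt itself was also low. Under NX/NG the summed level of 5 markers was 0.296 to 0.315 RPKM in Cort-/- against 0.454 to 0.893 RPKM in Cort+/+ libraries. Under OGD-R, where Aqp4 was not listed, the sum of the remaining 4 was 0.403 to 1.21 against 0.566 to 1.48 RPKM. The fibroblast sum, given above, also lay lower in Cort-/- cells under NX/NG and overlapped under OGD-R, and the part of either in the Agt difference was not tested.

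Ace, the converting enzyme (chr11:105967945-105989964, plus strand), measured 20.3, 30.2 and 25.4 RPKM in Cort+/+ and 34.9 and 28.8 RPKM in Cort-/- libraries under NX/NG. The OGD-R libraries measured 34.0, 24 and 19.5 RPKM in Cort+/+ replicates 1, 2 and 3 and 32.7 and 33.7 RPKM in Cort-/- replicates 1 and 3. The genotypes overlapped in both environments, and under OGD-R the overlap came from Cort+/+ replicate 1 alone. Cort-/- cells measured 1.27-fold under NX/NG (0.908 to 1.77, adjusted p = 0.681) and 1.32-fold under OGD-R (0.876 to 1.99, adjusted p = 0.978), and the environment gave 0.957-fold and 0.992-fold in Cort+/+ and Cort-/- cells. On the log2 scale the OGD-R difference between genotypes was 0.59 without both libraries low in ribosomal RNA and -0.011 within that pair.

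Counting libraries without overlap, 7 of 10 members separated the genotypes under NX/NG, beside 23.2% of all genes. Of these, 4 were higher in Cort-/- cells (Nos3, Edn1, Ece1 and Ednrb, beside 10.8% of genes) and 3 lower (Ednra, Npr3 and Agt, beside 12.3%). For Ednrb the nearest libraries were Cort-/- replicate 1 at 0.512 RPKM and Cort+/+ replicate 2 at 0.499 RPKM. These rested on 27 and 28 reads, so the read counts themselves overlapped. Under OGD-R 3 of 10 members separated the genotypes, beside 14.3%, with 1 higher (Nos3, beside 7.54%) and 2 lower (Npr3 and Agt, beside 6.71%). Nos3, Npr3 and Agt did so in the same direction in both environments, or 3 of 10 members, where 4.60% of the 27321 genes in both tables did. The environments were separated in Cort+/+ cells by 4 of 10 members beside 10.2% of genes, 1 higher under OGD-R (5.12%) and 3 lower (5.05%), and in Cort-/- cells by 3 of 10 beside 30.3%, 1 higher (14.4%) and 2 lower (15.9%). Nos3, Ednra and Ednrb did so in both genotypes, or 3 of 10, where 3.43% of genes did. The study presents some of the members as regulated, on libraries that overlap with these, so the list is not independent of these counts.

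Ratios within a library, chosen after the values were seen, do not depend on the scaling of libraries. Edn1 over Nos3, constrictor ligand over nitric oxide synthase, was 4.82 to 5.0 in Cort+/+ cells under NX/NG and 6.19 to 8.65 under OGD-R, a 1.51-fold difference with no overlap (two-sided exact permutation p = 0.1, the smallest possible). In Cort-/- cells it was 4.43 and 5.32 under NX/NG and 6.99 and 5.27 under OGD-R, which overlapped (1.25-fold, exact p = 0.667). Edn1 over Ece1 stayed between 0.975 and 1.22 in all 10 libraries. Ednra over Ednrb was 0.974 to 1.08 in Cort+/+ and 0.433 to 0.590 in Cort-/- cells under NX/NG, and 2.50 to 37.4 and 1.97 to 2.24 under OGD-R, where the highest value came from the library with 1 Ednrb read. Ace over Agt was 4.98-fold higher in Cort-/- cells under NX/NG and 4.65-fold higher under OGD-R (exact p = 0.2 in both, the smallest possible).

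**Figure D3:**
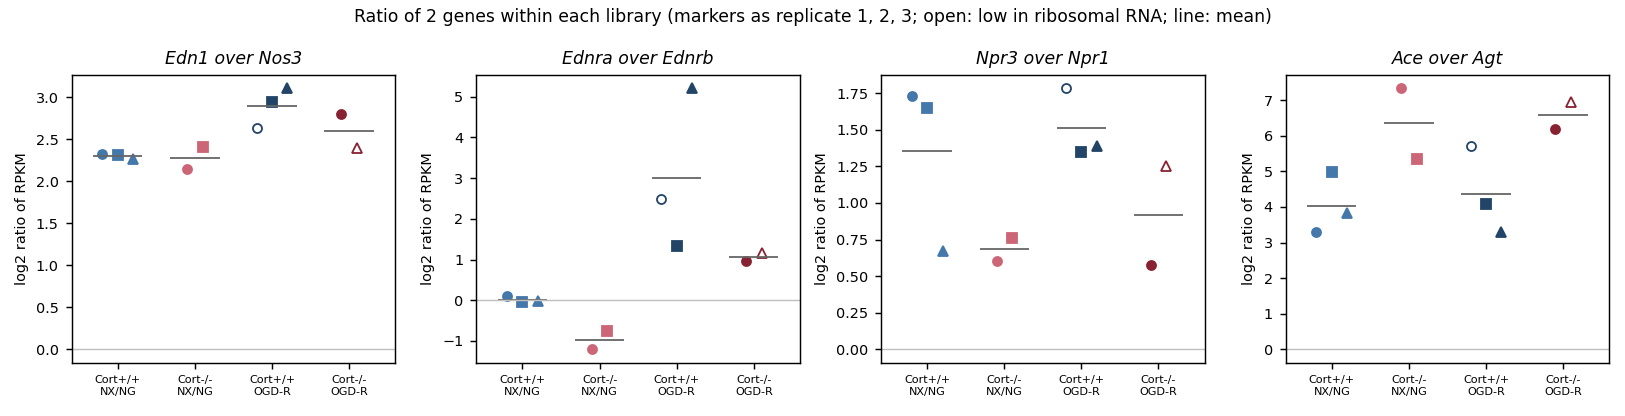
Ratio of 2 members within each library, as log2 of the ratio of RPKM (y axis) for the 4 groups (x axis), with markers as in the plot of levels and lines for group means. Edn1 over Nos3 was higher under OGD-R in all 3 Cort+/+ libraries (6.19 to 8.65 against 4.82 to 5.0), and Ednra over Ednrb was higher under OGD-R in both genotypes.

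Of 56 further genes of the same pathways, 53 were tested and 0 passed an FDR of 0.05 in any comparison. Under NX/NG, 1 was higher (beside 3.56% of all genes) and 7 were lower (beside 4.82%) in Cort-/- cells at an unadjusted p under 0.05. The arginine transporter Slc7a2, which feeds nitric oxide synthesis, measured 10.8, 6.84 and 8.82 RPKM in Cort+/+ and 3.39 and 3.34 RPKM in Cort-/- libraries (0.395-fold, adjusted p = 0.202). Klf4, an endothelial transcription factor that responds to flow, measured 15.6, 15.0 and 10.8 against 8.34 and 5.78 RPKM (0.514-fold, adjusted p = 0.374). Both groups were free of overlap for either gene. The cyclic GMP-dependent kinases Prkg1 (0.570-fold, adjusted p = 0.558) and Prkg2 (0.579-fold, adjusted p = 0.455), the C-type natriuretic peptide receptor Npr2 (0.886-fold, adjusted p = 0.588) and Agtrap, which binds the angiotensin receptor (0.856-fold, adjusted p = 0.541), were also lower, and Ddah1, which breaks down an inhibitor of the synthases, was 1.15-fold (adjusted p = 0.483). Under OGD-R only Nppb and Agtrap (0.815-fold, adjusted p = 0.978) had a p under 0.05, both lower in Cort-/- cells, or 2 of 53 beside 1.71% of all genes.

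Nppb, which encodes brain natriuretic peptide, was the pathway gene with the smallest adjusted p under NX/NG and OGD-R between genotypes. It measured 4.60, 4.77 and 4.44 RPKM in Cort+/+ and 2.90 and 2.62 RPKM in Cort-/- libraries under NX/NG (0.608-fold, adjusted p = 0.139). With OGD-R it measured 3.54, 3.92 and 2.25 RPKM in Cort+/+ replicates 1, 2 and 3 and 0.764 and 1.13 RPKM in Cort-/- replicates 1 and 3 (0.316-fold, adjusted p = 0.490). The OGD-R libraries were the lower ones in both genotypes, at 0.659-fold in Cort+/+ (adjusted p = 0.881) and 0.342-fold in Cort-/- cells (adjusted p = 0.623), and the interaction was 0.519-fold (adjusted p = 1.00). It rested on 7 to 49 reads a library. Nppb lies 1.14 Mb and Agtrap 1.04 Mb from Cort on chromosome 4, and what part this position has in their values was not tested. The interaction also had an unadjusted p under 0.05 for Slc7a2 (1.73-fold, adjusted p = 1.00) and for Agtr1a, an angiotensin receptor that had at most 2 reads in any library and for which no fold is given.

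By list, the median log2 fold change in Cort-/- against Cort+/+ cells under NX/NG was -0.07 over 24 genes of nitric oxide and cyclic GMP, -0.70 over 4 of endothelin, -0.10 over 9 of natriuretic peptides and -0.12 over 16 of the angiotensin and kinin system. The endothelin list leaves out the members, of which Edn1, Ece1 and Ednrb measured higher and Ednra lower in Cort-/- cells under NX/NG. It holds Edn2 and Edn3, at 0 to 11 and 0 to 2 reads a library under NX/NG. Of its 4 tested genes, 0 had an unadjusted limma p under 0.05 there. Under OGD-R the medians of the 4 lists were -0.06, -0.18, -0.04 and -0.07. The medians of all genes were -0.014 and -0.0089.

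**Figure D4:**
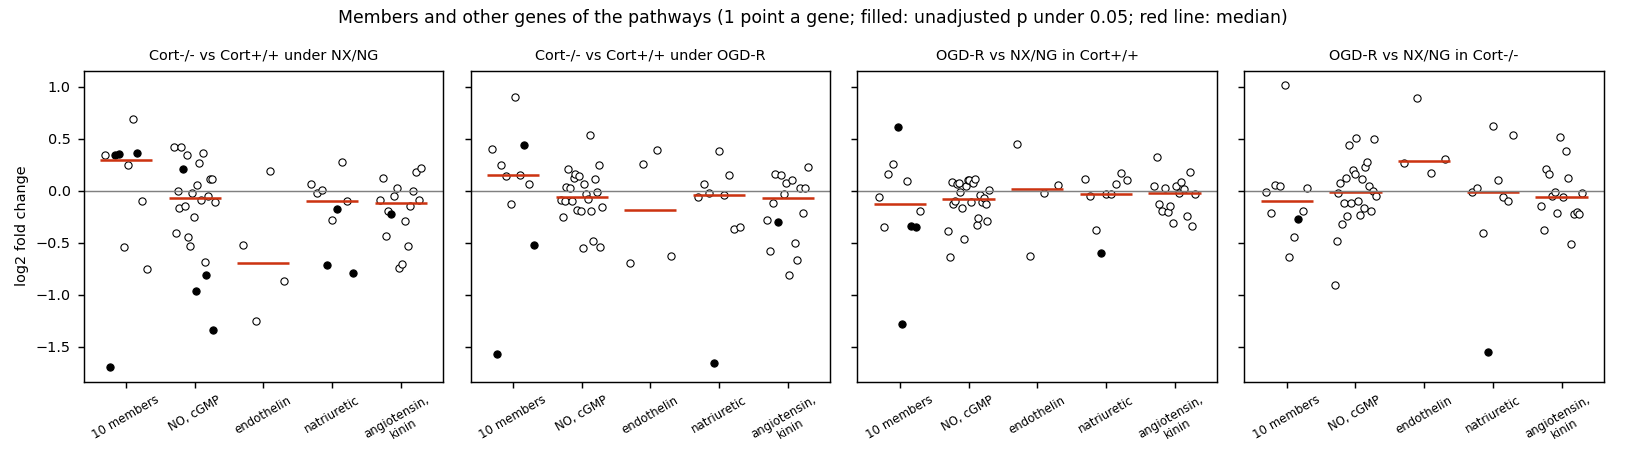
Log2 fold change (y axis) of the 10 members and of the other tested genes of the 4 pathway lists (x axis, 1 point a gene, red line for the median), in the 4 pairwise comparisons. Filled points have an unadjusted limma p under 0.05, and among the pathway genes outside the members these were 8, 2, 1 and 1.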

How the data were processed

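RNA-seq of BECs was deposited by the authors as one table for each environment, with RPKM for each library. The deposited RPKM are reads divided by gene length and library size, after the authors' scaling of each library by factors of 0.897 to 1.11, from the authors' reanalyzerGSE pipeline, and edgeR is named in the submitters' processing notes. The aligner, genome build and annotation are not given in the sources used here, and labels and methods differ in library kit and read length. Deposited log2 fold changes, log2 abundances (logCPM), p-values, FDR and genotype means come from the authors' own comparison of genotypes, and neither they nor the lists of called genes were used. The number of per-sample columns not used was 0.

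At least 99.9958% of values above 0 in each library were whole reads within 0.05, so reads were recovered. To compare environments, the 27321 genes that both tables list were joined and given one scaling by trimmed means of M values, which multiplied RPKM by 1.02 to 1.03 (NX/NG) and 0.974 to 0.975 (OGD-R). Levels printed are the deposited RPKM, which the authors scaled in each environment apart. Each comparison was fitted with limma 3.58.1 (R 4.3.3; trend) on log2(RPKM + 0.1), so fold changes of low genes are understated, over all genes above 0 and with the 2 compared groups (4 for the interaction). Benjamini-Hochberg adjustment covered all genes tested, at an FDR of 0.05. All 10 members were tested without a filter on low values, and 8 stay under a filter of 1 RPKM in 2 libraries in the genotype comparisons. Alternatives were another pseudocount, that filter, quantile normalization, limma-voom on recovered reads, a replicate block, all groups in 1 fit, new scaling within a table, a term for ribosomal RNA and leaving out each library. Leaving out both libraries low in ribosomal RNA, and all ratios, were chosen after seeing the data. Ratios were tested by two-sided exact permutation (SciPy 1.17.1). No replicates of a group were alike within sampling noise. The pairwise fits, by limma and limma-voom, and the scaling were tested on simulated data with 200 changed genes and no batch. The interaction, the ratios and the sequence and likeness searches were not tested in this way.

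The 10 members and the pathway and marker lists were chosen with earlier results of these data known. Named genes are all members, Cort, pathway genes with an unadjusted p under 0.05, leading or absent markers, and the 3 genes with the smallest root mean square difference from each of the 3 most variable members with a mean of at least 1 RPKM, of which 1 gene is not reported here. Intervals cover 95%, and a count of 0 reads allows up to 3.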

Additional observations from a re-analysis of the deposited data

How the results depend on the processing

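Over 669 alternative values of the members' log2 fold changes, 0 passed an FDR of 0.05, 616 kept their direction and 53 turned. The adjusted p of Ece1 under NX/NG came nearest, at 0.0566 with limma-voom. Nos3 (log2 0.27 to 0.44 under NX/NG, 0.39 to 0.48 under OGD-R), Npr3 (-1.06 to -0.57, and -0.59 to -0.45) and Agt (-2.38 to -0.83, and -1.98 to -0.75) kept their direction between genotypes in every alternative. Depth limits Agt, Ednra and Ednrb, at 1 to 61 reads a library, and 2 Cort-/- libraries a group limit all genotype comparisons.

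Numbers of all genes called changed as follows. Under NX/NG the genotype comparison called 20 with a pseudocount of 1, 124 with limma-voom and 4 with all groups in 1 fit, where the reported number was 0, and members at an unadjusted p under 0.05 were 7 with limma-voom instead of 4. Under OGD-R it called 5 with limma-voom and 7 with all groups in 1 fit instead of 0, and members at p under 0.05 were 5 with limma-voom and 1 with the replicate block instead of 3. OGD-R against NX/NG in Cort+/+ cells called 5 with a pseudocount of 1, 1 with limma-voom and 0 with the filter on low values, the replicate block, all groups in 1 fit, a term for ribosomal RNA or without both libraries low in it, instead of 9, and the filter left 2 members at p under 0.05 instead of 4. In Cort-/- cells, members at p under 0.05 were 2 with a pseudocount of 1, quantile normalization, limma-voom or all groups in 1 fit, instead of 1. The interaction called 0 with a pseudocount of 1, the filter, limma-voom, the replicate block, a term for ribosomal RNA or without both libraries, instead of 3. The cause of these changes was not tested.

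Leaving out 1 library at a time, genes called ranged from 0 to 683 for genotype under NX/NG, with 543 and 683 without Cort-/- replicate 1 and 2, and from 0 to 710 under OGD-R, with 710 and 626 without Cort-/- replicate 1 and 3, fits in which the lone Cort-/- library is assumed to vary like the others. They were 0 without any one library in Cort+/+ and in Cort-/- cells, and ranged from 0 to 8 for the interaction. Members called were 0 throughout, and members at p under 0.05 ranged from 1 to 4, from 2 to 4, from 1 to 3, from 0 to 1 and from 0 to 1 in the same order.

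Signs turned mostly for differences near 0. They turned for Ednra under OGD-R with the replicate block (0.027), for Agt in Cort+/+ cells with a term for ribosomal RNA or without both libraries low in it (0.061), and in Cort-/- cells for Ace with quantile normalization (0.013) and, with that term or without both libraries, for Nos2 (0.74), Npr1 (0.069), Npr3 (-0.036) and Agt (0.067). For the interaction they turned for Ace with that term (-0.013) and, without both libraries, for Nos2 (0.22) and Ece1 (0.066).

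Leaving out 1 library at a time turned Npr1 between genotypes under NX/NG (-0.23 to 0.040) and, under OGD-R, Nos2 (-1.04 to 1.35), Edn1 (-0.019 to 0.30), Npr1 (-0.20 to 0.33) and Ednra (-0.31 to 0.057). Between environments it turned, in Cort+/+ cells, Nos2 (-0.55 to 0.66), Ace (-0.28 to 0.12) and Agt (-0.67 to 0.061), and, in Cort-/- cells, Edn1 (-0.11 to 0.21), Ece1 (-0.12 to 0.24), Ace (-0.15 to 0.13), Npr3 (-0.036 to 0.092), Agt (-0.90 to 0.47), Nos2 (-1.64 to 0.74) and Npr1 (-0.46 to 0.069). For the interaction it turned Agt (-0.55 to 0.82), Ace (-0.13 to 0.27), Nos2 (-1.73 to 0.65), Nos3 (-0.0075 to 0.16), Npr1 (-0.11 to 0.42) and Ece1 (-0.28 to 0.075).

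Deviations of same-numbered Cort+/+ libraries across environments had correlations of -0.06, -0.07 and 0.19 (10 libraries, over genes). Differently numbered Cort+/+ pairs ranged from -0.24 to 0.24, so no pairing by number was seen. Deviations from the mean of so few libraries cannot exclude that same-numbered samples share a culture. With the replicate block 0 genes were called in Cort+/+ cells, and the block could not be fitted in Cort-/- cells, whose environments share 1 number.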

Other observations

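The genes whose levels followed the 3 most variable members most closely over the 10 libraries were found among 13789 genes by the root mean square difference of centred log2 levels. For Agt they were Ogn (0.442), a matrix proteoglycan, Tnfrsf8 (0.468) and Tnfrsf1b (0.495), both receptors of the tumour necrosis factor family, where the median gene differed by 0.988. For Nos2 they were F2rl2 (0.220), a protease-activated receptor, and Bmp2 (0.231), a growth factor, with a median of 0.955. For Npr3 they were Ppp1r3b (0.16), which regulates glycogen, Plod2 (0.168), a collagen lysyl hydroxylase, and Ptprf (0.176), a receptor phosphatase, with a median of 0.439. These values describe likeness over 10 libraries that share the genotype and environment groups, and carry no test.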
